A study of Mus musculus with 6 samples.

Results

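The UDP-glucuronosyltransferases (Ugt) and sulfotransferases (Sult) are the enzymes that attach a sugar or a sulfate group to small molecules in liver. Members were taken by symbol, as genes named Ugt1 to Ugt8 or Sult1 to Sult7, pseudogenes left out, with a count above 0 in at least 1 library. The symbols matched 43 genes, of which 8 were at 0 in every library (Sult1c1, Sult2a4, Sult2a5, Sult2a6, Sult3a1, Sult3a2, Ugt2a1 and Ugt2a2), so 35 of the 55401 listed genes were members, 20 Ugt and 15 Sult. Liver RNA of male mice was sequenced, 3 of them Prdx1 fl/fl (controls) and 3 Alb-Cre Prdx1 fl/fl (knockouts), all 8 weeks old at the start and all fed MCD for 5 weeks. MCD is not spelled out in the labels, and by common usage in liver studies it means a diet deficient in methionine and choline. Both groups carried the floxed alleles of Prdx1, a peroxide-reducing enzyme, and the knockouts alone carried Cre, whose albumin promoter is active in hepatocytes. An effect of the Cre transgene and an effect of Prdx1 loss cannot be told apart in this design, nor can an effect that needs the diet from one that does not.

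Glucuronosyltransferases sit in the membrane of the endoplasmic reticulum and move glucuronic acid from UDP-glucuronate onto bilirubin, bile acids, steroids, thyroid hormones and drugs. Sulfotransferases of these families work in the cytosol and move a sulfo group from the donor PAPS onto phenols, steroids and bile acids. Conjugates are more soluble in water and leave hepatocytes through transporters into bile or blood. Liver holds large amounts of both enzyme groups, mostly in hepatocytes.

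The Ugt1a enzymes come from 1 locus on chromosome 1 in which each gene has its own first exon and all share exons 2 to 5. The last 30 bases of exon 1 (lower case) and the first 30 bases of exon 2 (capitals, chromosome 1, from 88215044, plus strand, GRCm38, GENCODE M21) are shown for the 6 genes with the most counts, because reads on the capital side cannot be assigned to a gene by sequence.
Ugt1a1: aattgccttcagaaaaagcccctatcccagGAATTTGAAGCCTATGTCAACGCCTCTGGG
Ugt1a9: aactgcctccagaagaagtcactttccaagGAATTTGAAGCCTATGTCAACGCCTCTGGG
Ugt1a6a: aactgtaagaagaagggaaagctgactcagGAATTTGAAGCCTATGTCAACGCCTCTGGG
Ugt1a6b: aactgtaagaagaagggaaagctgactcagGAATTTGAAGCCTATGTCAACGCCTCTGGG
Ugt1a5: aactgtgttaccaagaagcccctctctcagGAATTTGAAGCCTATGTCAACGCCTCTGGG
Ugt1a2: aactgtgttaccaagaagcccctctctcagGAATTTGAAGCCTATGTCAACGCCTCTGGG
The capital parts of all 9 Ugt1a members were identical. Ugt1a6a and Ugt1a6b were also identical over the 30 bases before the junction, as were Ugt1a5 and Ugt1a2, whereas Ugt1a1 and Ugt1a9 matched at 23 of 30. In the longest transcript of each Ugt1a member, 56.1% to 100% of the 150-base windows occurred in another gene of the families. Ugt1a6a was at 100%, with Ugt1a7c as the gene that shared the most windows, and Ugt1a6b was at 66.2%. Values of single Ugt1a genes are therefore uncertain, while their sum is not affected by how reads were divided among them. Among the other members, Ugt2b5 and Ugt2b38 shared 19.5% and 19.2% of their windows, Sult2a2 shared 20.6% and Sult2a1 6.31%, and 22 members shared none.

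Prdx1 itself was measured at 644, 570 and 663 CPM (deposited counts scaled to a fixed total, with TMM factors) in the controls and at 78.6, 111 and 75.4 in the knockouts, which goes with the genotype labels. Its knockout mean was 14.1% of the control mean, and an exact permutation test (two-sided) returned 0.1, the lowest p that 3 against 3 mice allow. Library totals ran from 58790874 to 78291273 deposited counts. No litter, batch or sequencing date is given, and 3 mice a genotype is all that is stated of the replicates.

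Most of the transferases that liver expresses in quantity were lower in the knockout livers. Summed over all 35 members, the level per transcript length (FPKM) was 1463, 1473 and 1542 in the controls, against 914, 970 and 1080 in the knockouts, and the groups did not overlap. The knockout mean of this sum was 66.2% of the control mean. Ugt genes, Ugt3a and Ugt8a among them, supplied 76.2% ± 3.22 of it in the controls and 78.5% ± 0.743 in the knockouts (SD, n = 3 each). Summed Ugt and Sult FPKM were 68.1% and 59.9% of their control means, and the difference between the enzyme groups was not tested.

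Of the 35 members, 30 passed the filter on low counts and were tested, 18 Ugt and 12 Sult. With p-values of edgeR's quasi-likelihood test adjusted by Benjamini-Hochberg over all 18931 tested genes (threshold 0.05), 18 members were lower in the knockouts (12 Ugt, 6 Sult), 3 were higher and 9 were not called. Over all tested genes, 18% were called lower, 19.9% higher and 37.9% in either direction. At 2-fold or more, 10 members were lower, against 3.83% of all tested genes. The 3 mice of each genotype did not overlap for 19 members that were lower and 5 that were higher, against 24.2% and 28.8% of all tested genes, and they overlapped for 6. Sult2a1, Sult2a2 and Sult2b1, higher without overlap, had under 10 counts in every control. They passed the filter through the knockouts alone. Their being tested thus depended on the group in which they were high, and their direction is no separate support for a rise. Read among genes of like abundance, 20 members had a mean of at least 10 CPM over the 6 libraries, of which 15 were called lower, 0 higher and 4 not called, and Ugt1a2 was not tested. In that range of abundance, 31.6% of all tested genes were called lower and 18.3% higher.

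The median log2 fold change of the 30 tested members was -0.90, and that of all tested genes was 0.05. Scaled by library sizes alone, both medians moved up together, to -0.54 for the members and 0.41 for all genes, and in the deposited FPKM (limma, pseudocount 0.5) they were -0.63 and 0.27. The members' median lay below that of all genes under each of these scalings. In bulk liver, fewer cells of a type and less RNA per cell cannot be told apart. Of 19 tested hepatocyte markers, 13 were lower and 0 higher, with a median log2 fold change of -0.71, near that of the transferases, and their part in the members' values was not tested.

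**Figure D1:**
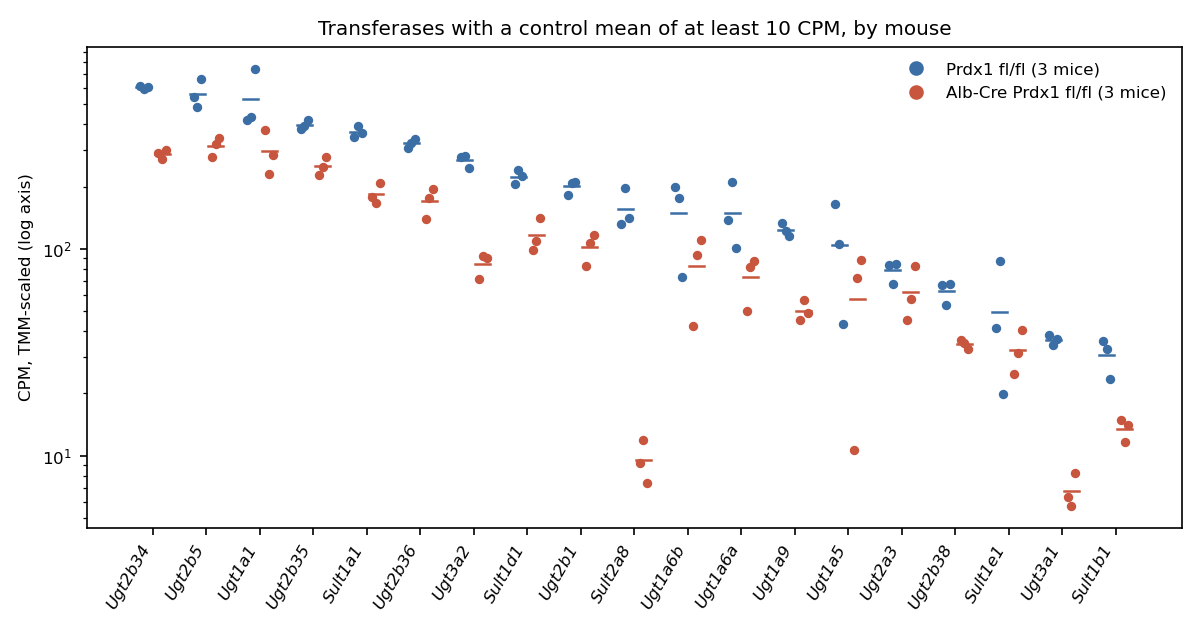
CPM (TMM-scaled, log axis) of the 19 transferases with a control mean of at least 10 CPM, with a point for each mouse and a bar for each group mean. Knockout points lie below all control points for 15 of these genes, and Sult2a8 and Ugt3a1 show the widest gaps.

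**Figure D2:**
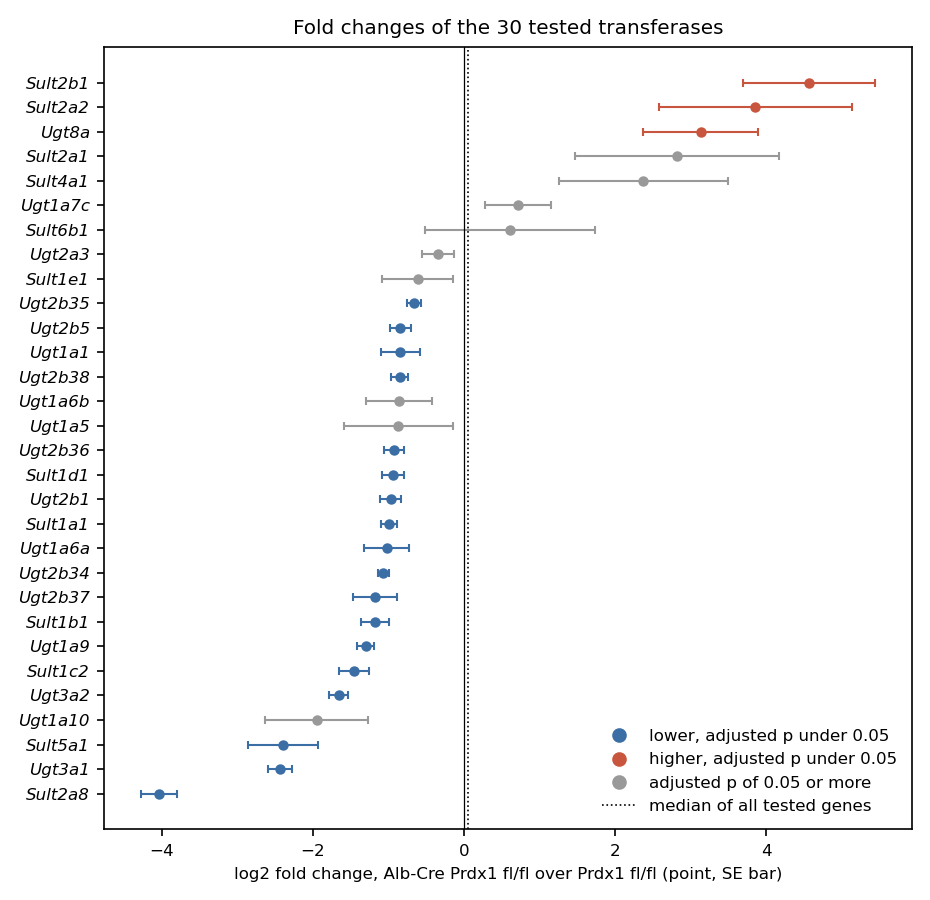
Log2 fold change (knockout over control, point) with its SE (bar) for the 30 tested transferases, colored by call, with the median of all tested genes, 0.05, as a dotted line. The 18 genes called lower run from -0.66 (Ugt2b35) to -4.04 (Sult2a8), and the 3 called higher, Ugt8a, Sult2a2 and Sult2b1, had few control counts.

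Ranked by control FPKM, the most abundant members were Ugt2b5 at 245 ± 41.5, Sult1a1 at 196 ± 10.2, Ugt1a1 at 193 ± 66.7, Ugt2b36 at 127 ± 6.50 and Ugt2b34 at 113 ± 2.88 (SD, n = 3). Sult1a1 and Ugt1a1 did not differ beyond their spread. In the knockouts the order at the top was Ugt2b5 at 173 ± 14.8, Ugt1a1 at 137 ± 35.2 and Sult1a1 at 125 ± 10.7 FPKM. Sult2a8 dropped from place 12 to place 19 and Ugt3a2 from 8 to 11, whereas Ugt2a3 moved from 15 to 10.

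The Ugt2 enzymes, which handle steroids, bile acids and many drugs, made up the largest share of the members' FPKM, 47.0% ± 2.75 in the controls and 50.0% ± 1.85 in the knockouts. Of these 8 genes, 7 were lower and 0 higher. All 8 lie on chromosome 5, beside Sult1b1, Sult1d1 and Sult1e1, and the 11 genes span 702 kb (86889767 to 87591594, GRCm38). Summed CPM of the 8 Ugt2 genes was 2183, 2141 and 2400 in the controls, against 1104, 1222 and 1353 in the knockouts. Every knockout was below every control. The knockout mean was 54.7% of the control mean in CPM and 70.3% in FPKM, so the size of the drop depended on the scaling. Fitted as 1 gene, the sum had a log2 fold change of -0.87 ± 0.10 (SE; adjusted p = 0.000606).

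Ugt2b34 was at 611, 595 and 604 CPM in the controls and at 291, 272 and 300 CPM in the knockouts. Mice of a genotype lay close together, and the log2 fold change of -1.07 ± 0.08 (adjusted p = 8.16e-05) had the smallest SE of all members. Ugt2b5, the most abundant member, was at 543, 484 and 665 CPM against 278, 323 and 342 CPM. Its controls were spread more widely, yet the lowest control exceeded the highest knockout, with a log2 fold change of -0.84 ± 0.14 (adjusted p = 0.00244). For Ugt2b36 the values were 306, 326 and 341 CPM against 139, 177 and 195 CPM. Ugt2b35 had 380, 395 and 418 CPM against 228, 248 and 277 CPM. Neither pair of groups overlapped, and the log2 fold changes were -0.93 ± 0.13 (adjusted p = 0.00128) for Ugt2b36 and -0.66 ± 0.10 (adjusted p = 0.00148) for Ugt2b35, the smallest of the 18 lower members.

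Ugt2b1 was at 182, 209 and 210 CPM in the controls and at 82.4, 107 and 117 CPM in the knockouts. Ugt2b38, which shares sequence with Ugt2b5, was at 67.2, 53.3 and 67.8 CPM against 36.2, 35 and 33 CPM. Both genes were lower without overlap, at -0.97 ± 0.14 (adjusted p = 0.0014) and -0.86 ± 0.12 (adjusted p = 0.00111). Ugt2b37, a weakly expressed member, was at 8.74, 10.1 and 9.03 CPM against 3.03, 3.06 and 6.17 CPM. Knockout 3 was about midway between the other knockouts and the controls, and the log2 fold change was -1.18 ± 0.29 (adjusted p = 0.0158). Without knockout 1 or knockout 2 that call was lost (adjusted p = 0.0533 and 0.0538).

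Ugt2a3 was the Ugt2 gene that was not called, at 84.0, 67.9 and 84.6 CPM in the controls and 45.5, 57.0 and 82.9 CPM in the knockouts. Knockout 3 was inside the control range, and the log2 fold change of -0.35 ± 0.21 was not called (adjusted p = 0.237); it was 0.0071 with library sizes alone. Without knockout 3 the adjusted p was 0.0254. In FPKM, Ugt2a3 was at 30.0 ± 3.92 in the controls and 29.8 ± 8.30 in the knockouts (SD, n = 3 each). Whether its fold change differs from those of the other Ugt2 genes was not tested.

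**Figure D3:**
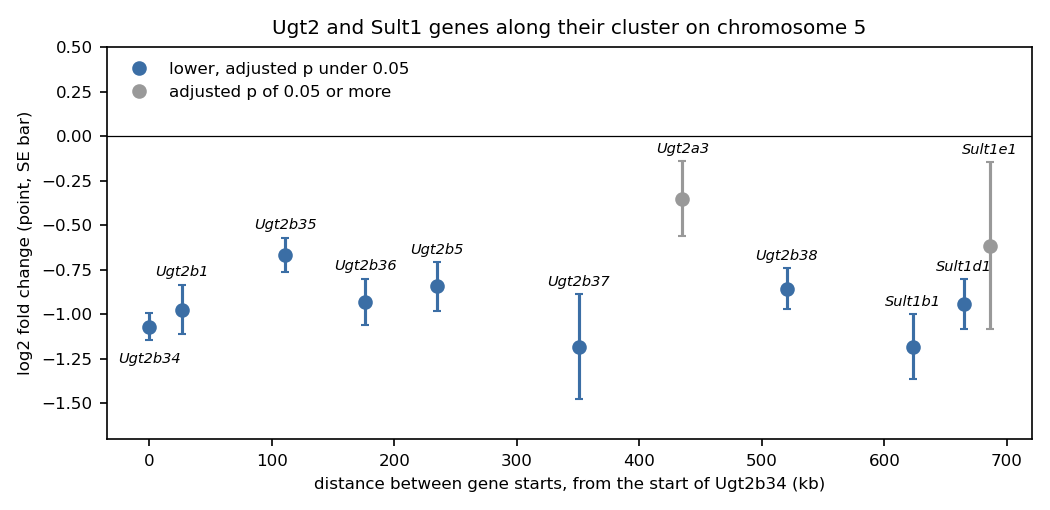
Log2 fold change (knockout over control, point) with its SE (bar) for the 11 Ugt2 and Sult1 genes along their cluster on chromosome 5, against distance in kb from the start of Ugt2b34. Of the 11, 9 were called lower, and Ugt2a3 and Sult1e1 (gray) were not.

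The Ugt1a complex, which includes the bilirubin-conjugating Ugt1a1, fell as a whole. Summed CPM of its 9 members was 1056, 1053 and 1079 in the controls, against 543, 536 and 678 in the knockouts. Controls agreed within a coefficient of variation of 1.33%, and no knockout came near them. Fitted as 1 gene, the complex had a log2 fold change of -0.86 ± 0.11 (adjusted p = 0.000797). Its share of the members' FPKM was 23.8% ± 0.887 in the controls and 25.3% ± 1.43 in the knockouts.

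The split of that sum among first exons varied from mouse to mouse within each genotype. Ugt1a1 took 39.6%, 41.3% and 68.8% of the complex's CPM in the controls, against 69.1%, 42.8% and 42.0% in the knockouts. Control 3 and knockout 1 were high, and the other 4 mice were close together, so genotype did not order the shares of Ugt1a1. Ugt1a5 took 15.6%, 9.99% and 4.04% in the controls, against 1.96%, 13.4% and 13.1% in the knockouts. Its share was lowest in the same 2 mice in which Ugt1a1 was high. Ugt1a9 took 12.7%, 11.6% and 10.7% in the controls, against 8.30%, 10.6% and 7.23% in the knockouts, narrowly without overlap. The small share of Ugt1a7c was higher in every knockout than in any control. Ugt1a2, identical to Ugt1a5 before the junction, had 2, 0 and 0 counts in the controls, against 1090, 0 and 4312 in the knockouts. It had almost no counts in 4 mice and the most in knockout 3, and it did not pass the filter, so it was not tested. The part of read assignment in these splits was not tested.

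**Figure D4:**
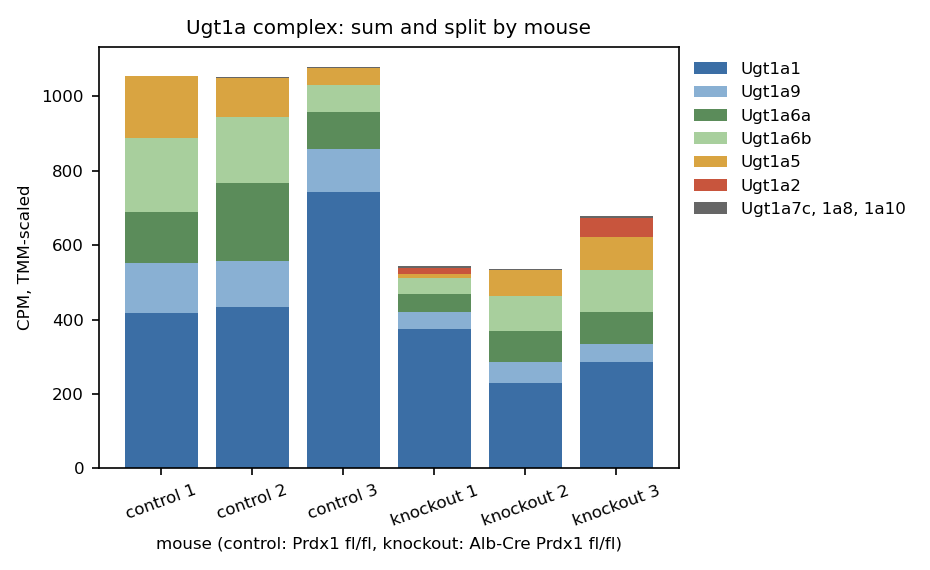
Stacked CPM (TMM-scaled) of the Ugt1a members in each mouse, with colors for the genes. Bar heights are 1053 to 1079 in the controls and 536 to 678 in the knockouts, and the Ugt1a1 segment, the largest in all 6 bars, takes 68.8% of control 3 and 69.1% of knockout 1 against 39.6% to 42.8% of the others.

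Ugt1a9, a phenol-conjugating enzyme, was at 134, 122 and 115 CPM in the controls and at 45.1, 56.7 and 49.0 CPM in the knockouts. All knockouts were well below all controls, with a log2 fold change of -1.30 ± 0.11 (adjusted p = 0.000173), and the call held in every alternative. Ugt1a1 was at 418, 434 and 742 CPM against 375, 229 and 285 CPM. The groups were separate by a narrow margin, with control 3 far above the other controls, and the log2 fold change of -0.84 ± 0.26 had an adjusted p of 0.0359. Its call was lost without control 3, knockout 2 or knockout 3 (adjusted p 0.0859 to 0.115), with library sizes alone (0.179) and in limma on FPKM.

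Ugt1a6a, which conjugates small phenols, was at 138, 210 and 100 CPM in the controls and at 49.9, 82.2 and 87.9 CPM in the knockouts. The highest knockout was just below the lowest control, and the log2 fold change was -1.03 ± 0.30 (adjusted p = 0.0294). Leaving out control 1, control 2, knockout 1 or knockout 2 ended that call (adjusted p 0.0603 to 0.0852), as did library sizes alone (0.10) and limma on FPKM (0.117 to 0.120). Ugt1a6b, its near copy, was at 199, 177 and 73.5 CPM against 42.6, 93.9 and 111 CPM. Here the groups overlapped through control 3, the log2 fold change of -0.86 ± 0.43 was not called (adjusted p = 0.160), and without control 3 the adjusted p was 0.0454. Ugt1a5 was at 165, 105 and 43.5 CPM against 10.7, 72.1 and 88.7 CPM. These groups also overlapped, and -0.87 ± 0.72 was not called (adjusted p = 0.394).

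The remaining Ugt1a members had few counts. Ugt1a7c was at 2.14 ± 0.845 CPM in the controls and 3.52 ± 1.64 in the knockouts (adjusted p = 0.238). Ugt1a10 was at 0.946 ± 0.536 and 0.244 ± 0.119 CPM (SD, n = 3 each), without overlap, at an adjusted p of 0.0567. It was called by DESeq2 (adjusted p = 0.0194) and without control 2 (0.0458). Ugt1a8 reached 8 counts in 1 control and was not tested.

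The 2 Ugt3a genes, neighbors on chromosome 15 (9276888 to 9370955), had the most negative fold changes of the called Ugt genes. Their human relatives use sugars other than glucuronic acid. Ugt3a1 was at 38.4, 34.2 and 36.6 CPM in the controls and at 6.29, 5.72 and 8.21 CPM in the knockouts. Ugt3a2 was at 279, 280 and 245 CPM against 71.5, 92.0 and 90.3 CPM. Groups of both genes were tight and far apart. The log2 fold changes were -2.43 ± 0.16 for Ugt3a1 (adjusted p = 5.99e-05) and -1.66 ± 0.12 for Ugt3a2 (adjusted p = 8.49e-05). Together they made up 5.40% ± 0.486 of the members' FPKM in the controls and 3.09% ± 0.287 in the knockouts.

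Ugt8a (chromosome 3, 125865271 to 125938619) moved the other way. It encodes the galactosyltransferase that makes galactosylceramide, a myelin lipid, and is no drug-conjugating enzyme. Its values were 1.18, 0.461 and 0.0684 CPM in the controls and 4.49, 6.27 and 4.15 CPM in the knockouts. The lowest knockout was above the highest control, yet every level was low beside those of the other Ugt families. The log2 fold change was 3.13 ± 0.76 (adjusted p = 0.0141), and without knockout 2 the adjusted p was 0.0505. Over the alternatives its fitted value ran from 0.94 (limma, pseudocount 1) to 4.22, and its control 3 had 4 deposited counts, so the size of the fold is uncertain.

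Among the sulfotransferases, the Sult1 genes carried most of the signal, 315 ± 34.7 of 354 ± 42.7 summed Sult FPKM in the controls and 207 ± 21.9 of 212 ± 21.3 in the knockouts. Of the 5, 4 were lower and 1 was not called. Sult1a1 (chromosome 7, 126672865 to 126676432), the main phenol sulfotransferase of liver, was at 348, 394 and 362 CPM in the controls and at 179, 166 and 208 CPM in the knockouts. No knockout reached the controls, and the log2 fold change was -1.0 ± 0.11 (adjusted p = 0.000399). Sult1a1 overlaps Sgf29 on the other strand, a gene with at most 1051 counts, and whether the counting used strand is not given in the sources used here.

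Sult1d1, which sulfates catecholamines, was at 205, 240 and 226 CPM against 98.9, 109 and 141 CPM. Sult1b1, which acts on thyroid hormones and phenols, was at 35.9, 32.7 and 23.4 CPM against 14.9, 11.6 and 14.1 CPM. Knockouts of both genes lay below the controls, with control 3 the lowest control for Sult1b1. The log2 fold changes were -0.94 ± 0.14 (adjusted p = 0.00169) for Sult1d1 and -1.18 ± 0.18 (adjusted p = 0.00192) for Sult1b1. Sult1c2 (chromosome 17) was at 10.6, 9.96 and 9.0 CPM against 4.48, 3.03 and 3.28 CPM. It too was lower without overlap, by -1.46 ± 0.20 on the log2 scale (adjusted p = 0.00112).

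Sult1e1, the estrogen sulfotransferase, varied widely among the controls. It was at 41.3, 87.3 and 19.9 CPM in the controls and at 24.8, 31.5 and 40.6 CPM in the knockouts. The controls spanned the whole range of the knockouts, and the log2 fold change of -0.62 ± 0.47 was not called (adjusted p = 0.350). Without control 2 it was 0.078.

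Sult2a8, the main bile acid sulfotransferase of mouse liver, fell further than any other tested member. It lies on chromosome 7 (14410686 to 14446769) and shared no 150-base window with another gene of the families. Values were 131, 197 and 141 CPM in the controls and 9.22, 11.9 and 7.38 CPM in the knockouts. Its knockout mean was 6.07% of the control mean, and control 2 was the highest mouse of its group. The log2 fold change was -4.04 ± 0.24 (adjusted p = 4.4e-05), and the call held in every alternative. With it, the summed FPKM of the Sult2 genes went from 38.4 ± 8.11 to 4.50 ± 0.711 (SD, n = 3 each).

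Its relatives in the same cluster had almost no counts in any mouse. Sult2a2, a bile acid and steroid sulfotransferase that is more abundant in female than in male mouse liver, had 8, 0 and 0 counts in the controls, against 44, 48 and 79 in the knockouts. Every knockout was above every control, at levels below 1 CPM. Sult2a2 passed the filter on low counts through the knockouts alone. edgeR called it higher (adjusted p = 0.0474), but leaving out any 1 of 5 libraries, all but control 1, ended the call (adjusted p 0.0928 to 0.136), as did using no count filter (0.0738) or a replicate block (0.0686). Sult2a1, with the same sex bias, had 0, 0 and 6 counts against 14, 36 and 13, and it also passed the filter through the knockouts alone. It was not called (adjusted p = 0.144), except without control 3 (0.0334). Sult2a3 and Sult2a7 reached 6 and 4 counts in 1 knockout each and were not tested.

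Sult2b1 (chromosome 7, 45729983 to 45784669), which sulfates cholesterol and pregnenolone, had 4, 4 and 0 counts in the controls, against 78, 103 and 96 in the knockouts. Knockout mice were close to each other at 1.15, 1.14 and 1.13 CPM, and none of the controls approached them. It was called higher (adjusted p = 0.00513). Sult2b1 too passed the filter through the knockouts alone, so its being tested depended on the group in which it was high. Many low counts were multiples of 4, so a read pair may be worth about 4 deposited counts. Each control value of 4 may then stand for about 1 pair, and no fold is given. Lmtk3 overlaps Sult2b1 on the other strand and had at most 131 counts.

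The other sulfotransferases were scarce. Sult5a1 (chromosome 8) was at 4.69, 5.59 and 4.31 CPM in the controls and at 0.339, 1.3 and 1.11 CPM in the knockouts. All its knockouts were lower, knockout 1 most of all, with a log2 fold change of -2.40 ± 0.46 (adjusted p = 0.00541). Sult4a1, known from brain, was at 0.0941 ± 0.109 and 0.491 ± 0.188 CPM and was not called (adjusted p = 0.137). Sult6b1 was at 0.228 ± 0.209 and 0.346 ± 0.0442 CPM (adjusted p = 0.719). Sult6b2 had 27 counts in 1 knockout, 0 elsewhere, and was not tested.

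Promoters of the members, 250 bases before to 50 after the start in RefSeq (GRCm38.p6), were searched on both strands for 8 letter patterns, each that of factors known to act on conjugating enzymes or at promoters in general. Entries were found for 29 member symbols, with 32 promoters. Members are counted here by symbol, whereas the shares over all are of single promoters, so the 2 are not in the same unit. The pattern TGTTTAC, read by the FOXA factors of liver, occurred in 5 of them, Sult1d1, Ugt1a2, Ugt2b35, Ugt2b37 and Ugt2b38, and in 3.65% of all 32851 promoters. Of these 5 genes, Sult1d1 and the 3 Ugt2b genes were called lower. Ugt1a2 was not tested and had 2, 0 and 0 counts in the controls, against 1090, 0 and 4312 in the knockouts. The windows of Ugt2b37 and Ugt2b38 are near copies of each other. Windows before the start are shown for the 3 Ugt2b genes, each in the direction of its gene with the match, here on the opposite strand, in capitals.
Ugt2b35: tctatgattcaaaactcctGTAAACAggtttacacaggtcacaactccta
Ugt2b37: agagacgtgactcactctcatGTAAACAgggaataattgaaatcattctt
Ugt2b38: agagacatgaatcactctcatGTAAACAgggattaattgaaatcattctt
These windows are chr5:87000610-87000659, plus strand, and chr5:87254926-87254975 and chr5:87424327-87424376, both minus strand. A match is a description of the letters and not evidence of binding.

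CAAAGTCCA (HNF4) was in the promoter of 1 member, Sult1b1, and in 0.475% of all promoters. TTCNNNGAA (STAT5) was in 1, Ugt1a6a, against 8.30% of all promoters, and TATAAA in 4 against 13.6%. GCGTG (AHR) was in 6 against 32.4%, and TGANNNNGC (NRF2) in 12 against 41.3%. Direct repeats of the nuclear receptor site AGGTCA with 4 spacer bases and with 1 spacer base were in 0 member promoters and in 0.0152% and 0.0396% of all.

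Of 8 tested genes of UDP-glucuronate supply and use, 6 were lower and 1, Uxs1, was higher, with a median of -0.55. Beside this and the following lists stand the shares over all tested genes, 18% lower and 19.9% higher. Among tested genes with a mean of at least 10 CPM, the shares were 31.6% lower and 18.3% higher. With library sizes alone or in limma on FPKM, 3 of the 8 were lower. Ugp2, which makes UDP-glucose, was at 739 ± 73.1 CPM in the controls and 370 ± 10.3 in the knockouts, a log2 fold change of -1.0 ± 0.09 (adjusted p = 0.000246). Ugdh, which oxidizes UDP-glucose to UDP-glucuronate and was chosen after its values were seen, was at 346 ± 133 and 234 ± 19.2 CPM and was not called (adjusted p = 0.10), except lower by DESeq2 (0.0332). Gulo and Akr1a1, which carry glucuronate on toward ascorbate, had log2 fold changes of -1.05 ± 0.12 (adjusted p = 0.000651) and -0.29 ± 0.08 (0.023). The call of Akr1a1 was lost without control 1, control 3, knockout 1 or knockout 2 (0.0645 to 0.0804), and its sign turned with library sizes alone (0.074) and in limma on FPKM (0.057). Uxs1, which turns UDP-glucuronate into UDP-xylose, was at 9.89 ± 1.08 and 13.4 ± 0.382 CPM and remained called without control 3 alone among the 6 omissions.

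For the sulfate donor, 7 of 14 tested genes were lower, 0 higher and 7 not called, with a median of -0.36. Papss1 and Papss2, the enzymes that make PAPS, were chosen after their values were seen. Papss1 was at 22.1 ± 4.54 and 30.6 ± 3.38 CPM and missed the threshold (adjusted p = 0.0609). It was called higher in 8 alternatives, namely without control 2 (0.0331), with library sizes alone (0.0052), in limma with each pseudocount (0.0062 to 0.0071), with counts divided by 4 (0.0461), with a replicate block (0.0224) and by DESeq2 (0.0393). Papss2 was at 108 ± 12.3 and 92.2 ± 7.01 CPM (0.155; 0.0491 without control 2), and its sign turned with library sizes alone (0.14). Cdo1 and Tst, of cysteine and sulfur oxidation, were lower at -0.44 ± 0.10 (adjusted p = 0.0105) and -0.86 ± 0.12 (0.00139). The call of Cdo1 was lost with library sizes alone (-0.081, adjusted p = 0.521) and in limma on FPKM (-0.10, 0.396 with pseudocount 0.5). Got1 was not called (0.404), except without knockout 3 (0.0333). Among 5 tested deconjugating enzymes, Gusb, which removes glucuronic acid, was higher by 0.36 ± 0.09 (adjusted p = 0.0173; 0.0573 without knockout 1). Arsa, a lysosomal sulfatase, was lower by -0.89 ± 0.15 (0.00269), and Sumf1, which activates sulfatases, had an adjusted p of 0.780. With library sizes alone, Sumf1 was called higher (0.32, 0.0311), as it was in limma on FPKM (0.28 to 0.30, 0.0327 to 0.0332).

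Transporters of conjugates and bile acids were lower for 6 of 9 tested genes and higher for 1, with a median of -0.65. Slco1b2 and Slc10a1, uptake carriers of hepatocytes, were at -1.39 ± 0.11 (adjusted p = 0.000123) and -0.96 ± 0.20 (0.00803). Abcc2, which exports conjugates into bile, was at -0.50 ± 0.15 (0.0319), a call lost without control 1, control 3, knockout 1 or knockout 2 (0.0628 to 0.0965). It was also lost with library sizes alone (-0.13, 0.481), in limma on FPKM (-0.15, 0.418 with pseudocount 0.5) and with no count filter (0.0501). The list named other conjugating enzymes, which also holds epoxide hydrolases, was lower for 8 of 13 and higher for 0, with a median of -0.98. Ephx2, an epoxide hydrolase, was at -0.98 ± 0.09 (0.000243), and Ephx1 was not called (0.597), except without control 2 (0.0468).

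Of 21 tested transcriptional regulators of these families, 8 were lower, 1 higher and 12 not called, with a median of -0.24. Among all tested genes with a mean of at least 10 CPM, 31.6% were lower and 18.3% higher. The regulators' balance turned with the scaling, to 7 higher and 3 lower with library sizes alone and in limma on FPKM. Over all 18931 tested genes, the calls went from 3767 higher and 3415 lower to 6458 and 1249 with library sizes alone. Hnf4a, a hepatocyte nuclear receptor, was at 836 ± 50.1 and 480 ± 44.9 CPM, a log2 fold change of -0.80 ± 0.10 (adjusted p = 0.000703). Rxra and Cebpa were at -0.39 ± 0.10 (0.0166) and -0.54 ± 0.14 (0.0196). These 2 calls were lost without control 1, control 3 or knockout 2 for Rxra (0.0510 to 0.0658) and without control 2 or knockout 1 for Cebpa (0.0590 to 0.0609). Both were also lost with library sizes alone, at -0.026 (0.858) for Rxra and -0.17 (0.311) for Cebpa, and in limma on FPKM (pseudocount 0.5), at -0.040 (0.765) and -0.20 (0.236). Ppara, the fatty acid receptor, chosen after its values were seen, was at 129 ± 31.9 and 52.3 ± 8.99 CPM, or -1.31 ± 0.20 (0.00173). Among 15 target genes of the xenobiotic and fatty acid receptors, 7 were lower, 0 higher and 8 not called, with a median of -0.47. Cyp1a2, Cyp3a11 and Cyp4a14 were lower at -2.41 ± 0.22 (0.000206), -0.62 ± 0.12 (0.00546) and -1.29 ± 0.27 (0.0074). The call of Cyp3a11 was lost with library sizes alone (-0.26, 0.112) and in limma on FPKM (-0.27, 0.10), and both scalings gave 3 higher genes in this list.

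**Figure D5:**
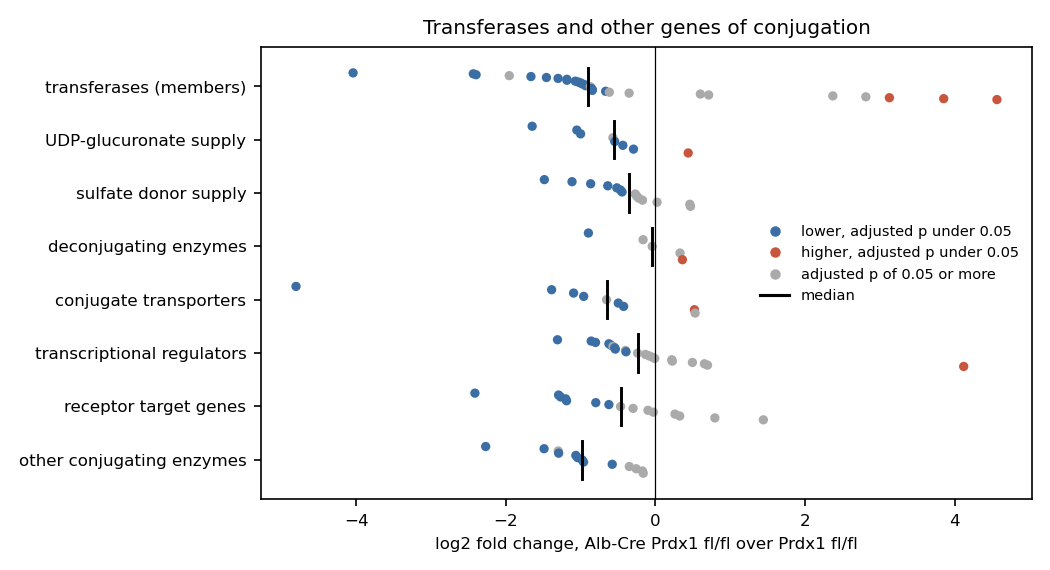
Log2 fold change (knockout over control) of each tested gene in the transferases and in 7 lists of related genes, a point per gene colored by call, with a bar at each median. Medians run from -0.98 (other conjugating enzymes, a list that also holds epoxide hydrolases) to -0.04 (deconjugating enzymes), and that of the transferases is -0.90.

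Values of other cell types and of sex-biased genes moved with genotype beside those of the transferases. Male-biased liver genes were lower for 13 of 15 and higher for 0 (median -1.33), Mup20 by -4.93 ± 0.25 (adjusted p = 2.81e-05) and Gstp1 by -0.60 ± 0.15 (0.0176). Gstp1 lost its call without control 1, control 3, knockout 1 or knockout 2 (0.0513 to 0.0661), with library sizes alone (-0.23, 0.268) and in limma on FPKM (-0.23, 0.291 with pseudocount 0.5). Female-biased genes were higher for 6 and lower for 4 of 18 (median 0.15), with Cyp4a14 lower and Cyp2a4 not called (0.532). Cholangiocyte markers were higher for 12 of 12, with summed CPM of 89 to 101 in the controls and 1204 to 1394 in the knockouts, Spp1 by 4.22 and Epcam by 4.38 on the log2 scale. Macrophage markers were higher for 11 of 12 (1267 to 1429 against 2792 to 3051 CPM; Lyz2 1.25, Cd5l 0.95), and so were 11 of 12 stellate and fibroblast markers (783 to 888 against 2478 to 2860 CPM; Dcn 1.29, Cygb 2.77). Hepatocyte markers summed to 115728 to 139115 CPM in the controls and 67853 to 85519 in the knockouts, with Alb at -0.81 and Apoa1 at -0.82. Endothelial markers were higher for 3 and lower for 3 of 10 (Oit3 -0.77; Clec4g -0.67, but -0.30 and not called, 0.0874, with library sizes alone and -0.31, 0.0656, in limma with pseudocount 0.5), and lymphocyte markers higher for 4 and lower for 1 of 10 (Ptprc 0.79; Nkg7 not called, 0.198, but 0.0424 in limma with pseudocount 0.5). Intestinal markers Cdx1, Cdx2 and Sis were at 0 in every library. Of 3 tested genes, 1 was higher, Fabp2 was lower (-1.50) and Lgals4 was not called (0.576). Kidney markers Slc34a1, Umod, Slc12a1 and Aqp2 were at 0, Lrp2 was not called (0.351; 0.0463 without knockout 3) and Pax8 was not tested. The part of these cell types and of sex-biased expression in the transferase values was not tested.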

How the data were processed

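Whole-liver poly(A) RNA from 3 Prdx1 fl/fl and 3 Alb-Cre Prdx1 fl/fl mice was measured, per the labels. The authors deposited, for 55401 genes and each library, estimated counts and FPKM. The deposited estimated counts were whole numbers and not scaled to a common total. Many low values were multiples of 4, though not all (Sult2a1 had 6, 14 and 13), so no counting intervals are given. The authors' FPKM was 1e-04 wherever the count was 0. Per the submitters' processing notes, the tools, listed without roles, were StringTie 1.3.4d, HISAT2 2.0.4, cutadapt 1.9, edgeR, DESeq2 and UMI-tools. The notes name the build mm9, but all 35 members had their GENCODE M21 (GRCm38) positions. Columns headed wt were taken as the controls, the only other genotype.

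Counts, rounded to whole numbers as deposited, were tested in R 4.3.3 with edgeR 4.0.16 (filterByExpr with minimum count 10 and total 15, TMM factors, genotype as the only term, two-sided quasi-likelihood test, Benjamini-Hochberg adjustment over 18931 genes, threshold 0.05). CPM are TMM-scaled; SD and SE are given with n = 3 a group. The script was tested on simulated data. Alternatives were RLE factors, library sizes alone, DESeq2 1.42.0, limma 3.58.1 on log2(FPKM + 0.5, 0.1 or 1), no filter, counts divided by 4, a replicate block, each library left out, at least 2-fold, and each gene cluster fitted as 1 gene.

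Members and gene lists were chosen with earlier results of these data known. Every member was named, with values by mouse for members with a group mean of at least 10 CPM and for called members without overlap. In other lists the 3 (conjugation) or 2 (markers, sex-biased) genes with the highest mean FPKM were named. Some results are not reported here. Uxs1, Ugdh, Papss1, Papss2 and Ppara were named after their values were seen.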

Additional observations from a re-analysis of the deposited data

How the results depend on the processing

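The rule of at least 2-fold is left out of the next counts. Of 443 values of the 30 tested members under the other alternatives, 411 kept their direction and side of the threshold. Of the rest, 25 lost the call, 5 gained it and 2 changed sign. Of the 18 lower members, 15 kept their call in every such alternative that tested them. The exceptions were Ugt1a1, Ugt1a6a and Ugt2b37. Leaving out each library in turn gave 15 to 18 lower and 2 to 3 higher members, and 10 lower members differed at least 2-fold. Over all genes, library sizes alone gave 6458 higher and 1249 lower, limma 5669 and 1321 (pseudocount 0.5), 5682 and 1327 (1), and 1311 lower (0.1), and at least 2-fold 2329 and 725; single omissions gave 2892 to 3645 and 2641 to 3104. The labels do not say whether replicate numbers pair the mice. Same-numbered mice correlated only weakly, at 0.0163, 0.0634 and 0.0441, yet each correlated best with its own number. Pairing was therefore not settled. With a replicate block, 18 members were lower and 2 higher, and 3269 genes higher and 3207 lower.

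Counts in other lists moved as follows. Library sizes alone: UDP-glucuronate supply 3 lower, sulfate donor supply 2 higher and 2 lower, deconjugating enzymes 3 higher, transporters 2 higher, regulators 7 higher and 3 lower, receptor targets 3 higher, hepatocyte markers 1 higher. Limma with each pseudocount gave the same, except sulfate donor supply with 3 lower, no moved hepatocyte count and lymphocyte markers with 0 lower. Counts divided by 4: sulfate donor supply 2 higher, receptor targets 1 higher, lymphocyte markers 0 lower. DESeq2: sulfate donor supply 2, regulators 2 and receptor targets 1 higher. Replicate block: UDP-glucuronate supply 0, sulfate donor supply 1, regulators 2 and lymphocyte markers 2 higher. No filter: lymphocyte markers 2 and intestinal markers 2 higher. At least 2-fold: UDP-glucuronate supply 0 higher and 2 lower, sulfate donor supply 2 lower, deconjugating enzymes 0 and 0, transporters 0 higher and 3 lower, regulators 1 lower, other conjugating enzymes 5 lower, hepatocyte markers 3 lower, macrophage markers 6 higher, endothelial markers 0 and 0. Single omissions: UDP-glucuronate supply 0 to 1 higher, transporters 0 to 2, deconjugating enzymes 0 to 1, intestinal markers 1 to 2, lymphocyte markers 2 to 4, receptor targets 0 to 1, sulfate donor supply 0 to 1 and regulators 1 to 3 higher, and kidney markers 0 to 1 lower.

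Log2 fold changes that turned sign were, with library sizes alone, Ugt2a3 0.0071, Papss2 0.14, Akr1a1 0.074, Got1 0.091, Sumf1 0.32, Ephx1 0.20 and Lgals4 0.11. Limma with pseudocounts 0.5, 0.1 and 1 turned Papss2 (0.13, 0.13, 0.12), Akr1a1 (0.057 in each), Got1 (0.045 in each), Sumf1 (0.29, 0.30, 0.28), Ephx1 (0.23 in each) and Lgals4 (0.16, 0.17, 0.14). Over single omissions, the range crossed 0 for Sult1e1 (-0.99 to 0.078, the latter without control 2), Cyp2a4 (-0.0022, without control 2, to 0.42), Ephx1 (-0.38 to 0.030, without control 3), Lgals4 (-0.51 to 0.15, without control 3) and Sumf1 (-0.090 to 0.018, without knockout 1, and 0.014 without control 3). The cause was not tested, beyond the shift of the median of all genes with the scaling. Differences of Sult2a1, Sult2a2, Sult4a1 and Sult6b1 rest on few counts, and on fewer read pairs if a pair is worth about 4 deposited counts.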
